A study of Mus musculus with 18 samples.

Results

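The 50 genes described here encode ribosome biogenesis factors: the transcription machinery of ribosomal RNA, the proteins that modify and cut the precursor rRNA, and the factors that assemble it into subunits. They were taken by symbol from a list, and a gene was kept if it had at least 10 counts in 3 libraries. All 50 of the 50 listed genes passed, of 21003 symbols in the table, of which 10958 pass the same minimum. The study compares blood stem cells kept at different pH, and its title names polyamines. It sequenced 18 libraries, each of 100 LT-HSCs, the long-term repopulating blood stem cells, sorted from bone marrow of young mice of 8 to 12 weeks, wild type for all groups, named B6.SJL in one label and c57 B6 WT in another. The cells of 6 mice, numbered 1 to 6 in the titles, were profiled in 3 groups of 6 libraries. The first group was fresh, uncultured cells labelled pH 7.4, the second was cultured at pH 7.4 for 48 h, and the third was cultured at pH 6.9 for 48 h. Per the labels' growth protocol the medium was IMDM with 10% FBS and the cytokines mSCF, GCSF and mTPO at 50 ng/ml, under 3% O2.

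Ribosomes are built in the nucleolus, where RNA polymerase I copies the ribosomal DNA into a long precursor. Small nucleolar ribonucleoproteins (snoRNPs) guide methylation and pseudouridylation of that RNA, a processome cuts out the small-subunit rRNA, and separate sets of helicases, ATPases and scaffold proteins mature the large subunit. The genes of these factors are textbook targets of the transcription factor Myc, and blood stem cells are known for a low rate of protein synthesis.

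Promoters are shown for 4 members because their sequences hold the Myc-family motif CACGTG and because the members behaved differently: Imp4 and Nme1 were called in opposite directions in odd- and even-numbered mice, Nop2 was called in neither, and Rrn3 in no comparison. The motif is its own reverse complement, so that a match counts for both strands and no other motif was searched. The sequences are from RefSeq on GRCm38.p6, read 5′ to 3′ on the gene's strand, and are the 130 bases that end just before the annotated start, with the motif in capitals. Nme1 has a pair of annotated starts, and both are shown.
Imp4, chr1:34439699-34439828, plus strand: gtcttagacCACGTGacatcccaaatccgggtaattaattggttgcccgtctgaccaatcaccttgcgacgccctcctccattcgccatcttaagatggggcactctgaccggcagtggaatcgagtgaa
Nme1, chr11:93968273-93968402, minus strand: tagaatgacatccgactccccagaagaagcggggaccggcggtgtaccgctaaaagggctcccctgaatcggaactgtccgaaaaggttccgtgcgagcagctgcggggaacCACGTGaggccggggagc
Nme1, chr11:93968026-93968155, minus strand: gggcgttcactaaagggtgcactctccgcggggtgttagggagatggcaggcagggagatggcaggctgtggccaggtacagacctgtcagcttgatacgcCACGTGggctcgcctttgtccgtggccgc
Nop2, chr6:125131753-125131882, plus strand: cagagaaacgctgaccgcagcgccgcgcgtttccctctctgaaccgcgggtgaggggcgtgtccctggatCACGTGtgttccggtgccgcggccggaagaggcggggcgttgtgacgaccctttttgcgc
Rrn3, chr16:13780569-13780698, plus strand: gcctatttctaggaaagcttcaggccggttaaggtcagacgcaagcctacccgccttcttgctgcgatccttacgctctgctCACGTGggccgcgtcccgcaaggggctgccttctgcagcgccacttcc
Of the 50 members, 45 matched an entry in the promoter table; Bop1, Fbl, Npm1, Rrp12 and Rrs1 did not. In windows from 250 bases before to 50 bases after the start, the motif stood in 11 of these 45 members (24.4%), in 12.1% of the 8665 tested genes with an entry and in 8.09% of all 27025 genes in the table. The 11 members were Imp4, Ltv1, Mdn1, Nme1, Nop2, Pes1, Rrn3, Tsr1, Utp20, Utp4 and Wdr43. Of the 11 with the motif 4 were called up at pH 6.9 in odd-numbered mice and 4 down in even-numbered mice. Among the 34 without it the counts were 12 and 19. The shares over all genes tested were 5.07% and 4.07%.

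The levels below are CPM, shares of a library's counts scaled to 1e+06 and by TMM, a normalization of library size, and are not corrected for transcript length, so that they are compared between libraries and not between genes. In 15 libraries total counts ranged from 1640817 to 7508120 and genes detected from 11225 to 12792. The other 3 stood apart: fresh replicate 1 held 6311 counts and 3035 detected genes, fresh replicate 4 detected 9408 genes and pH 6.9 replicate 3 detected 8925. In fresh replicate 1 the 50 members had 71 counts in all and 20 were at 0, which allows up to 3 counts each. Fresh replicate 4 and pH 6.9 replicate 3 deviated in the same members. Against each member's median, 22 were over 2-fold higher in both, such as Nop58 at 3316 and 3192 CPM, and 11 were over 2-fold lower in both, such as Nop2 at 9.21 and 3.51 CPM. Across the 50 genes their deviations had a correlation of 0.933, as a description of genes in 2 libraries. The same values over all genes are not given, so that these deviations are not shown to be particular to the members. In every group the odd-numbered and the even-numbered mice carry a different first sequencing index in the titles, 701 and 702 in fresh cells, 707 and 708 at pH 7.4, and 705 and 706 at pH 6.9. Each comparison is given over all 18 libraries and then for odd and for even mouse numbers separately over the 15 libraries. The groups share no first index. In every comparison between groups, over 18 or 15 libraries, an effect of pH or culture and one of the index cannot be told apart. The split was chosen with earlier results of these data known, which showed libraries separating by that index. Its p-values are thus not those of a split set in advance. Lists of values follow the order of the mouse numbers, which for the 15 libraries are 3 and 5 (fresh), 1, 3 and 5 (pH 7.4) and 1 and 5 (pH 6.9) for odd-numbered mice, and 2 and 6 (fresh), 2, 4 and 6 (pH 7.4) and 2, 4 and 6 (pH 6.9) for even-numbered mice.

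**Figure D1:**
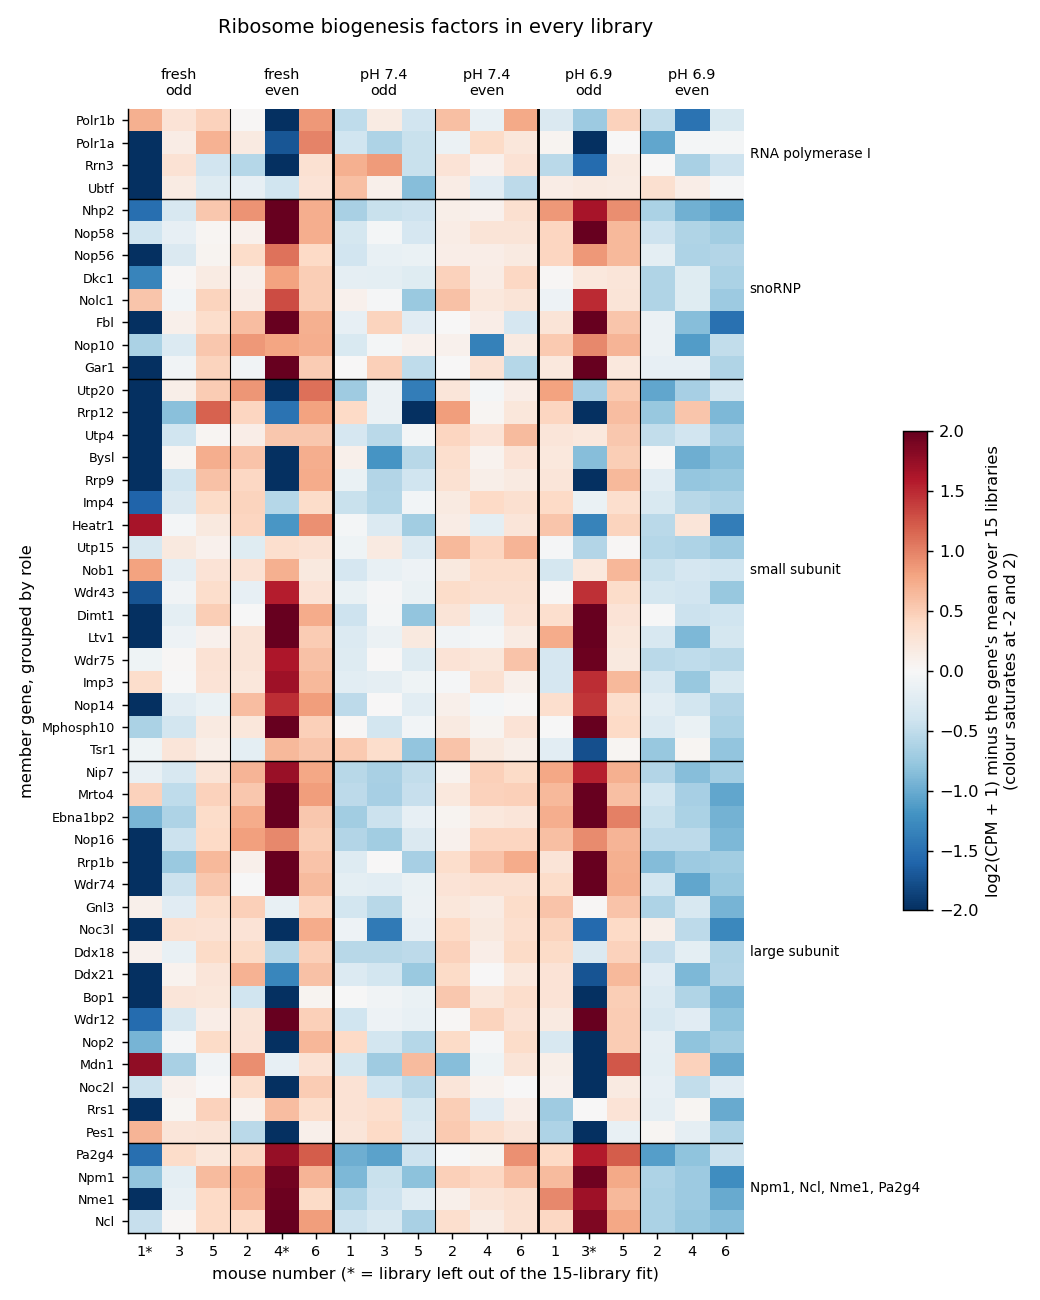
Level of the 50 genes (rows, grouped by role) in the 18 libraries (columns, by group and by odd or even mouse number), as log2(CPM + 1) minus the gene's mean over 15 libraries; red is higher and blue lower. Rows of processing and assembly factors are mostly red at pH 7.4 in even-numbered mice and at pH 6.9 in odd-numbered mice and mostly blue in the other cultured sets, and the 3 libraries with an asterisk depart from the rest of their sets.

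Over all 18 libraries none of the 3 group comparisons moved a member past the threshold, an adjusted p under 0.05 by edgeR's quasi-likelihood test with Benjamini-Hochberg adjustment over all genes tested. At pH 6.9 against pH 7.4, 0 of 50 members passed, and so did 0% of the 10104 genes tested. Unadjusted p was under 0.05 for 2 members, Utp15 and Tsr1, both lower, and DESeq2 called 0. Fold changes ran from -0.77 ± 0.42 (log2 ± SE) for Pes1 to 1.14 for Gar1 (-0.09 over the 15 libraries), with 28 of 50 positive and a median of 0.18, against -0.01 over all genes. At pH 7.4 against fresh cells, 0 of 50 passed (0% of all genes, 0 members at an unadjusted p under 0.05, 0 by DESeq2), the median was -0.41 against 0.08 over all genes, and 42 of 50 were negative. At pH 6.9 against fresh cells, 0 of 50 passed (0% of all genes, 1 member, Tsr1, at an unadjusted p under 0.05, 0 by DESeq2), with a median of -0.28 against 0.02 and 49 of 50 negative. The last 2 comparisons share the fresh libraries. For none of these comparisons is the share of all genes at an unadjusted p under 0.05 given. Without the 3 libraries that stood apart, the same 3 comparisons also gave 0 members.
The spread inside the groups was wide. The summed level of the 50 genes ran from 5691 through a median of 14124 to 33245 CPM in fresh cells, from 8341 through 10527 to 13715 at pH 7.4, and from 6285 through 11131 to 30958 at pH 6.9. All 3 groups overlapped.

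Within the groups the summed level separated by mouse parity, in opposite directions at the 2 pH values. At pH 7.4 it was 8341, 8821 and 8377 CPM in odd-numbered mice and 12876, 12232 and 13715 in even-numbered mice. At pH 6.9 it was 14425 and 16464 in odd-numbered mice and 7837, 7108 and 6285 in even-numbered mice. The sets of one pH did not overlap, and the odd-numbered mice at pH 6.9 lay with the even-numbered mice at pH 7.4. Libraries were used as labelled. An exchange of pH labels within one of the sets, which would turn the sign of the pH effect there, was not tested. In fresh cells it was 9743 and 13591 for odd mouse numbers and 14657 and 16296 for even ones. With 100 cells a library, fewer cells of one type and less of its RNA per cell cannot be told apart.

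**Figure D2:**
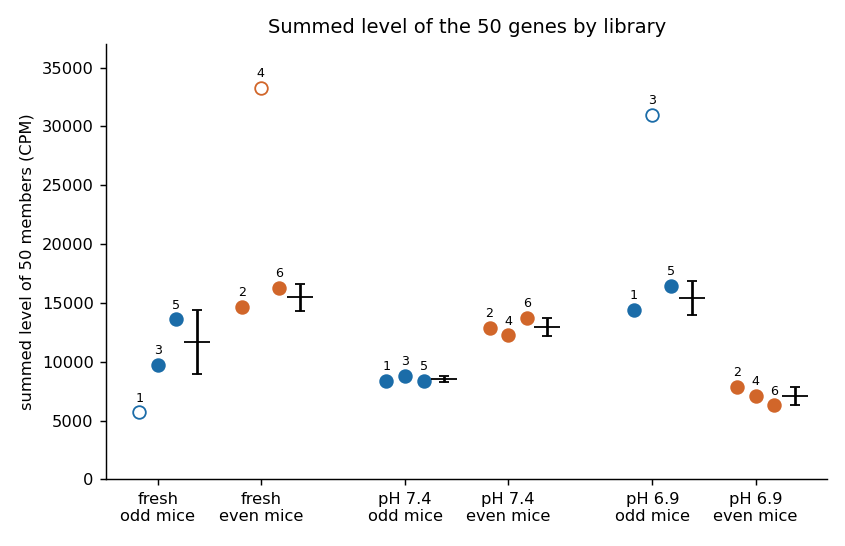
Summed level of the 50 genes in CPM (vertical axis) in each library, by group and mouse parity; numbers are mouse numbers, open circles are the 3 libraries left out of the 15-library fit, and bars are mean and SD of the filled circles. The filled circles of pH 7.4 odd and pH 6.9 even lie between 6285 and 8821 CPM, and those of pH 7.4 even and pH 6.9 odd between 12232 and 16464 CPM.

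Among odd-numbered mice, with 2 libraries at pH 6.9 and 3 at pH 7.4, 17 of 50 members rose at pH 6.9 and 0 fell, where 5.07% of all 10659 genes tested rose and 6.01% fell. The median fold change was 0.69 on the log2 scale against -0.08 over all genes, and 46 of 50 were positive. In even-numbered mice (3 against 3), 0 rose and 25 fell, where 2.67% of all genes rose and 4.07% fell, with a median of -0.81 against 0.04 and 48 of 50 negative. The difference of the pH effect between the sets, tested directly in the same fit, was negative and past the threshold for 33 members, where 9.09% of all genes were, and positive for 0, where 8.96% were, with a median of -1.35 against 0.14. Levels at pH 6.9 were above every pH 7.4 library of the same set for 33 members in odd-numbered mice (19.1% of all genes), and below every one for 40 members in even-numbered mice (16.4% of all genes).
Called in both directions, up in odd-numbered and down in even-numbered mice, were 16 members: Nop56, Nop58, Nhp2, Utp4, Imp4, Ebna1bp2, Mrto4, Gnl3, Nip7, Nop16, Ddx18, Ddx21, Npm1, Ncl, Nme1 and Pa2g4. A further 9 fell in even-numbered mice with no call in the other set (Dkc1, Nolc1, Utp15, Wdr43, Wdr75, Bop1, Wdr12, Rrp1b and Wdr74), and Utp20 was called in odd-numbered mice alone. The share of all genes with such pairs of calls is not given beside the 16 and the 9. The counts in each set depend on single libraries. The count in odd-numbered mice was 9 without pH 6.9 replicate 5, and that in even-numbered mice was 7 without pH 7.4 replicate 6 and 8 without pH 6.9 replicate 6. Leaving out pH 6.9 replicate 1 or 5, or a fresh library, leaves 1 library in its set, which is then assumed to vary like the other sets. With the 3 left-out libraries included, the counts were 1, 0 and 6. For counts under such other settings, here and below, the share of all genes called is not given. A loss of calls in the members and one over all genes therefore cannot be told apart. Of 67 calls of single members described below, 57 did not pass over 18 libraries, and the 10 that did are given beside their genes.

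**Figure D3:**
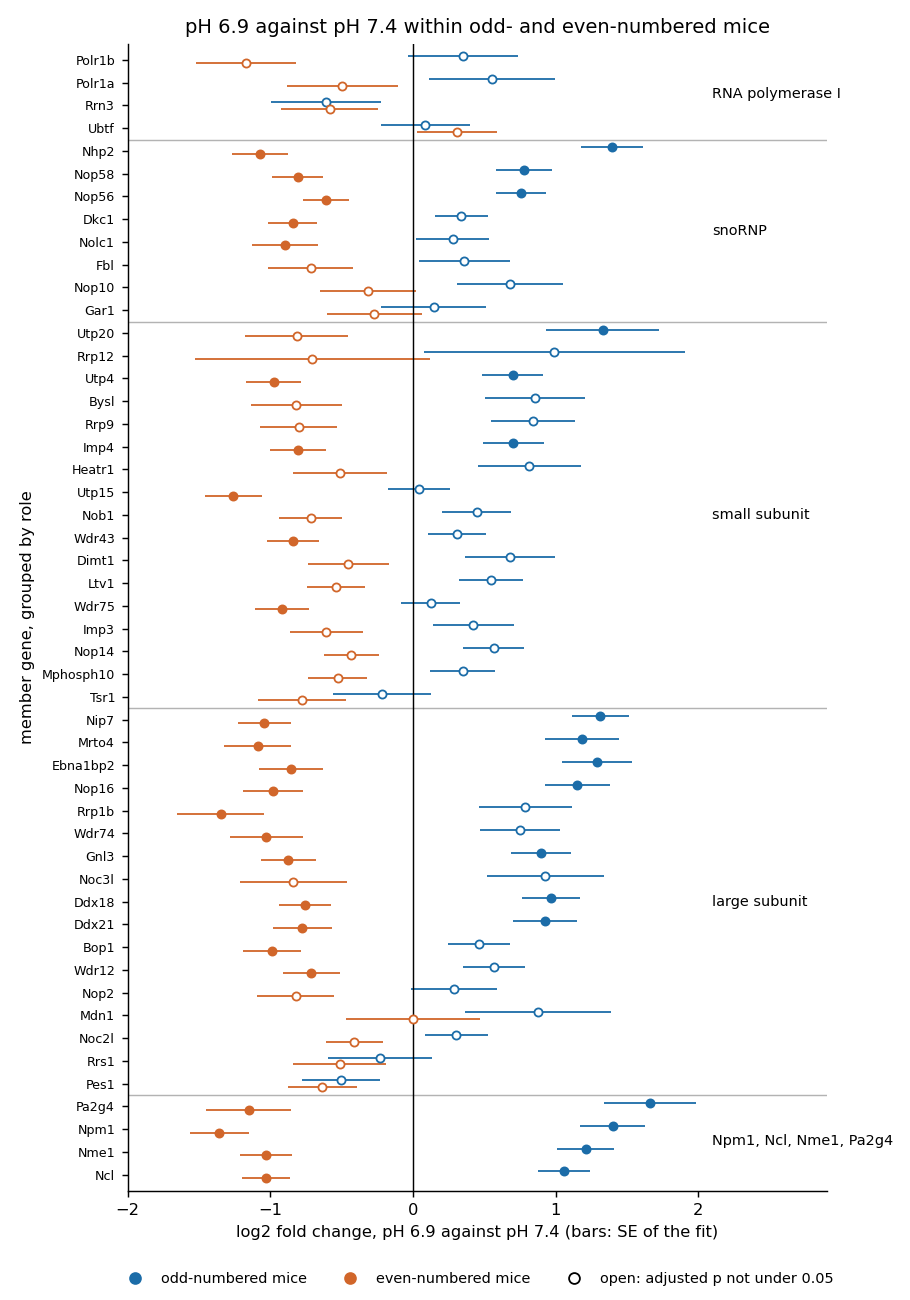
Log2 fold change of pH 6.9 against pH 7.4 (horizontal axis, with the SE of the fit) for each of the 50 genes, grouped by role, in odd-numbered (blue) and even-numbered mice (orange); filled points have an adjusted p under 0.05. Filled blue points (17) are all above 0 and filled orange points (25) all below 0, while the RNA polymerase I genes have open points.

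The 4 genes of RNA polymerase I transcription did not pass for pH in either set of mice. Polr1a and Polr1b are the core catalytic subunits of the enzyme, Rrn3 carries it to the promoter, and Ubtf binds the ribosomal DNA.
Polr1a had 11.4, 9.66 and 11.1 CPM at pH 7.4, 16 and 15.5 at pH 6.9, and 17.2 and 25.4 fresh in odd-numbered mice. Polr1a in even-numbered mice had 14.2, 20.4 and 18.1 CPM at pH 7.4, 6.96, 15 and 15 at pH 6.9, and 17.5 and 31.4 fresh. Its sets overlapped in even-numbered mice and not in odd-numbered mice, with a fold change of 0.56 ± 0.44 there (adjusted p = 0.457).
Polr1b had 33.9, 54.9 and 37.2 CPM at pH 7.4, 39.5 and 67.2 at pH 6.9, and 58.9 and 66.92 fresh in odd-numbered mice. Polr1b in even-numbered mice had 74.2, 43.6 and 83.1 CPM at pH 7.4, 34.2, 16.8 and 39.1 at pH 6.9, and 49.5 and 89.8 fresh. In even-numbered mice every pH 6.9 library was below every pH 7.4 library, with a fold change of -1.17 ± 0.35 that missed the threshold (adjusted p = 0.0523). It passed under DESeq2 (0.0224), without a filter on low counts (0.00414), with mouse number as a term (0.0175), and without fresh replicate 2 (0.0486), fresh replicate 6 (0.0496), pH 7.4 replicate 4 (0.0381), pH 7.4 replicate 5 (0.0473), pH 6.9 replicate 1 (0.0468) or pH 6.9 replicate 5 (0.0481). Its difference between the sets passed, at -1.52 ± 0.52 (0.0491). That call was lost without fresh replicate 3 (0.058) or 5 (0.0589), pH 7.4 replicate 1 (0.101), 2 (0.0975), 5 (0.0772) or 6 (0.135), or pH 6.9 replicate 2 (0.0588), 4 (0.106) or 5 (0.267).
Rrn3 had 83.5, 91.9 and 36.8 CPM at pH 7.4, 34.5 and 57.2 at pH 6.9, and 61.7 and 38.6 fresh in odd-numbered mice. Rrn3 in even-numbered mice had 61.3, 53.9 and 61.5 CPM at pH 7.4, 50.5, 31.7 and 37.7 at pH 6.9, and 33.5 and 62.5 fresh. In even-numbered mice its pH 6.9 libraries all lay below those at pH 7.4, and in odd-numbered mice the sets overlapped. Unlike most members its fold change had the same sign in both sets, -0.61 ± 0.39 and -0.58 ± 0.34 (adjusted p = 0.331 and 0.351).
Ubtf had 169.8, 120.2 and 61.8 CPM at pH 7.4, 124 and 125 at pH 6.9, and 125 and 93.4 fresh in odd-numbered mice. Ubtf in even-numbered mice had 124, 95.5 and 77.5 CPM at pH 7.4, 139, 123 and 109 at pH 6.9, and 99.2 and 136 fresh. Its sets overlapped throughout, and its fold changes were 0.09 ± 0.31 and 0.31 ± 0.28.
In the 3 left-out libraries (fresh replicate 1, fresh replicate 4 and pH 6.9 replicate 3) Polr1a was at 0, 4.03 and 0.877 CPM, Polr1b at 80.2, 8.63 and 28.9, Rrn3 at 0, 7.48 and 16.7 and Ubtf at 0, 84.6 and 127.

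Among the 8 snoRNP proteins, 3 rose at pH 6.9 in odd-numbered mice (5.07% of all genes) and 5 fell in even-numbered mice (4.07%). The same number, 5, had a negative difference between the sets (9.09% of all genes). Box C/D particles, which guide rRNA methylation, are represented by the methyltransferase Fbl and the scaffold proteins Nop56 and Nop58. Box H/ACA particles, which guide pseudouridylation, are represented by the synthase Dkc1 with Nhp2, Nop10 and Gar1, and Nolc1 is a chaperone of both.
Nhp2 lies on mouse chromosome 11 from 51619735 to 51623714 (mm10, GENCODE M21). It had 291, 334 and 344 CPM at pH 7.4, 832 and 872 at pH 6.9, and 368 and 665 fresh in odd-numbered mice. Nhp2 in even-numbered mice had 497, 483 and 571 CPM at pH 7.4, 294, 235 and 218 at pH 6.9, and 857 and 759 fresh. No pH 6.9 library overlapped the pH 7.4 libraries of its set, higher in odd-numbered (1.40 ± 0.21, adjusted p = 0.00096) and lower in even-numbered mice (-1.07 ± 0.20, 0.00351). Over 18 libraries neither passed (0.0681 and 0.81). The difference was -2.47 ± 0.29 (3.14e-05, and 0.0203 over 18 libraries).
Nop56 had 501, 589 and 594 CPM at pH 7.4, 874 and 1026 at pH 6.9, and 534 and 674 fresh in odd-numbered mice. Nop56 in even-numbered mice had 712, 710.04 and 735 CPM at pH 7.4, 566, 426 and 435 at pH 6.9, and 843 and 853 fresh. It rose by 0.76 ± 0.18 in odd-numbered mice (0.012, but 0.102 without pH 6.9 replicate 5) and changed by -0.61 ± 0.16 in even-numbered mice (0.029). The latter call was lost without pH 7.4 replicate 2 (0.0827), 4 (0.0662) or 6 (0.138), or pH 6.9 replicate 4 (0.115) or 6 (0.135).
Dkc1 had 354, 349.9 and 337 CPM at pH 7.4, 407 and 473 at pH 6.9, and 407 and 450.2 fresh in odd-numbered mice. Dkc1 in even-numbered mice had 549.9, 443 and 536 CPM at pH 7.4, 264, 339 and 257 at pH 6.9, and 429 and 562 fresh. It changed by 0.34 ± 0.19 in odd-numbered mice, which did not pass (0.261), and by -0.84 ± 0.17 in even-numbered mice, which did (0.00689, but 0.0538 without pH 7.4 replicate 6 and 0.0519 without pH 6.9 replicate 6). Its difference between the sets was -1.18 ± 0.25 (0.00326).
Fbl had 65.8, 102 and 63 CPM at pH 7.4, 88.8 and 109 at pH 6.9, and 80 and 94.7 fresh in odd-numbered mice. Fbl in even-numbered mice had 74.7, 81.5 and 58.8 CPM at pH 7.4, 68.5, 40.7 and 25.6 at pH 6.9, and 114 and 122 fresh. Its pH fold changes did not pass (0.36 ± 0.32 and -0.72 ± 0.29, 0.516 and 0.16), and the second passed without pH 6.9 replicate 2 (0.0334). Its difference of -1.08 ± 0.43 did not pass (0.0947) except without a filter (0.0398), without pH 7.4 replicate 3 (0.0468) or without pH 6.9 replicate 2 (0.0151).
Gar1 had 32, 45.1 and 22.2 CPM at pH 7.4, 37 and 37 at pH 6.9, and 30.2 and 43.9 fresh in odd-numbered mice. Gar1 in even-numbered mice had 32.2, 39.2 and 21.1 CPM at pH 7.4, 28.4, 28.4 and 20.8 at pH 6.9, and 30.3 and 45.9 fresh, and passed in no comparison. Its largest values were in libraries left out, 278 CPM in fresh replicate 4 and 276 in pH 6.9 replicate 3.
The remaining 3 were Nop58 (0.78 ± 0.20 and -0.81 ± 0.18, both called), Nolc1 (0.28 ± 0.26 and -0.90 ± 0.23, the second called) and Nop10 (0.68 ± 0.37 and -0.31 ± 0.34, neither called). Nop58 no longer rose when pH 7.4 replicate 1 (0.0585) or pH 6.9 replicate 5 (0.127) was omitted, and no longer fell when replicate 6 of pH 7.4 (0.0696) or of pH 6.9 (0.0773) was. The call of Nolc1 was lost with mouse number as a term (0.0501) and without pH 7.4 replicate 2 (0.117) or 6 (0.0916) or pH 6.9 replicate 2 (0.083) or 6 (0.136), and Nop10 passed in odd-numbered mice without a filter (0.0301). In fresh replicate 1, fresh replicate 4 and pH 6.9 replicate 3, Nhp2 was at 160.3, 1837 and 1439.5 CPM, Nop56 at 160.3, 1381 and 1192, Dkc1 at 160.3, 696 and 462 and Fbl at 0, 349 and 339.

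Of the 17 small-subunit factors 3 rose in odd-numbered mice (5.07% of all genes) and 5 fell in even-numbered mice (4.07%). A negative difference between the sets was called for 11 (9.09% of all genes). Utp4, Utp15, Wdr43, Wdr75 and Heatr1 belong to the complex that first binds the nascent transcript, and Imp3, Imp4 and Mphosph10 form the Mpp10 complex of the processome. Bysl, Ltv1, Tsr1, Rrp12, Dimt1 and Nob1 act on later precursors, with Dimt1 a dimethyltransferase of the rRNA and Nob1 the nuclease of its last cut.
Utp4 had 219, 191 and 270.1 CPM at pH 7.4, 329 and 406 at pH 6.9, and 211 and 286 fresh in odd-numbered mice. Utp4 in even-numbered mice had 376, 335 and 433 CPM at pH 7.4, 198, 213 and 176 at pH 6.9, and 304 and 405 fresh. It rose by 0.70 ± 0.21 in odd-numbered mice (0.0406) and changed by -0.98 ± 0.19 in even-numbered mice (0.0061, but 0.0567 without pH 7.4 replicate 6), with a difference of -1.68 ± 0.29 (0.000607). The rise did not pass with mouse number as a term (0.0976), and without pH 7.4 replicate 1 (0.0995), 2 (0.0573) or 3 (0.124) or pH 6.9 replicate 1 (0.0707), 2 (0.0518) or 5 (0.251).
Imp4 had 180.3, 164 and 237 CPM at pH 7.4, 325 and 308 at pH 6.9, and 201 and 322 fresh in odd-numbered mice. Imp4 in even-numbered mice had 277, 324 and 305 CPM at pH 7.4, 198, 166 and 160.1 at pH 6.9, and 334 and 317 fresh. Its changes were 0.70 ± 0.21 (0.0399) and -0.81 ± 0.19 (0.0186), and their difference -1.51 ± 0.29 (0.00141). The first was lost with mouse number as a term (0.113) and without pH 7.4 replicate 1 (0.108), 2 (0.0539), 3 (0.121) or 6 (0.051) or pH 6.9 replicate 1 (0.164) or 5 (0.117). The second was lost without pH 7.4 replicate 4 (0.0605) or 6 (0.0923) or pH 6.9 replicate 4 (0.0691) or 6 (0.1), while the difference passed without any single library but not over 18 libraries (0.171).
Wdr43 had 245, 264 and 244 CPM at pH 7.4, 274 and 348 at pH 6.9, and 255 and 344 fresh in odd-numbered mice. Wdr43 in even-numbered mice had 345, 334 and 337 CPM at pH 7.4, 210.0, 206 and 159 at pH 6.9, and 239.6 and 323 fresh. It was called in even-numbered mice alone (-0.84 ± 0.18, 0.0105, but 0.0588 without pH 7.4 replicate 6 and 0.0797 without pH 6.9 replicate 6), and its difference passed at -1.15 ± 0.27 (0.00641).
Bysl had 65.8, 26.3 and 41.2 CPM at pH 7.4, 71 and 86.6 at pH 6.9, and 62.8 and 102 fresh in odd-numbered mice. Bysl in even-numbered mice had 77, 63.9 and 74.2 CPM at pH 7.4, 60.9, 30.5 and 33.7 at pH 6.9, and 91.6 and 101 fresh. Neither set passed (0.85 ± 0.35 and -0.82 ± 0.32), except odd-numbered mice without pH 7.4 replicate 1 (0.0458), and the difference of -1.67 ± 0.47 did (0.0193, but 0.081 without pH 6.9 replicate 5 and 0.0545 without pH 6.9 replicate 6). A part of its exons, 361 bases, overlaps Ccnd3 on the opposite strand, whose reads cannot be told apart without strand information.
Nob1 had 109, 124 and 128 CPM at pH 7.4, 108 and 218 at pH 6.9, and 121 and 167 fresh in odd-numbered mice. Nob1 in even-numbered mice had 157, 176 and 177 CPM at pH 7.4, 100.4, 108 and 104 at pH 6.9, and 169 and 158 fresh. In even-numbered mice the sets did not overlap, and the change of -0.72 ± 0.22 missed the threshold (0.0561). It passed under DESeq2 (0.0327), without a filter (0.0344), with mouse number as a term (0.0392), and without fresh replicate 3 (0.0486), pH 7.4 replicate 5 (0.0486), pH 6.9 replicate 1 (0.0216) or pH 6.9 replicate 5 (0.0222). Its difference of -1.17 ± 0.33 passed (0.0179, but 0.262 without pH 6.9 replicate 5). In odd-numbered mice it passed without pH 6.9 replicate 1 (0.0477), with 1 pH 6.9 library left, and not otherwise (0.45 ± 0.24, 0.249).
Passing in none of the comparisons were Mphosph10, Rrp12, Tsr1 and Dimt1. Mphosph10 had 127, 97.3 and 120.4 CPM at pH 7.4, 125 and 166 at pH 6.9, and 97.5 and 142 fresh in odd-numbered mice. Mphosph10 in even-numbered mice had 142, 130.2 and 152 CPM at pH 7.4, 104, 114 and 80.8 at pH 6.9, and 147 and 176 fresh. Its difference of -0.88 ± 0.31 lay just outside the threshold (0.0557) and passed under DESeq2 (0.0373) and without fresh replicate 3 (0.0452), fresh replicate 5 (0.0464) or pH 6.9 replicate 1 (0.0441).
Rrp12 was low, with 9.06, 6.02 and 0 CPM at pH 7.4, 9.25 and 10.7 at pH 6.9, and 3.26 and 16.1 fresh in odd-numbered mice. Rrp12 in even-numbered mice had 12.6, 6.85 and 7.93 CPM at pH 7.4, 3.48, 10.2 and 3.08 at pH 6.9, and 9.25 and 12.2 fresh, and its sets overlapped in even-numbered mice and not in odd-numbered mice. A count of 0 in pH 7.4 replicate 5 allows up to 3 counts.
Tsr1 had 123, 109 and 49.1 CPM at pH 7.4, 73.4 and 87.2 at pH 6.9, and 101 and 92.6 fresh in odd-numbered mice. Tsr1 in even-numbered mice had 127, 97.4 and 92.6 CPM at pH 7.4, 49.9, 87.4 and 49.1 at pH 6.9, and 74.7 and 125 fresh. Its fold changes were negative in both sets (-0.22 ± 0.35 and -0.78 ± 0.31), the second passing without a filter (0.0401), and 616 of its exonic bases overlap Srr on the opposite strand.
Dimt1 had 38.2, 50.1 and 29.3 CPM at pH 7.4, 64.8 and 62.2 at pH 6.9, and 44.4 and 72.2 fresh in odd-numbered mice. Dimt1 in even-numbered mice had 61.3, 47.39 and 62.9 CPM at pH 7.4, 51.1, 37.7 and 38.7 at pH 6.9, and 51.1 and 86.1 fresh. Its difference of -1.13 ± 0.42 (0.0707) passed without pH 7.4 replicate 3 (0.0408), and it shares 1229 exonic bases with Kif2a on the opposite strand.
Of the others, Utp15 had the largest change of the class in even-numbered mice (-1.26 ± 0.20) and one of 0.04 ± 0.22 in odd-numbered mice, and Utp20 rose in odd-numbered mice (1.33 ± 0.40, 0.0372). The latter call was lost with mouse number as a term (0.0679) and without pH 7.4 replicate 1 (0.0921), 2 (0.0527), 5 (0.0819) or 6 (0.0513) or pH 6.9 replicate 1 (0.164) or 5 (0.0845). In fresh replicate 1, fresh replicate 4 and pH 6.9 replicate 3, Utp4 was at 0, 404 and 320.2 CPM, Imp4 at 80.2, 165 and 224, Wdr43 at 80.2, 801 and 745, Bysl at 0, 10.9 and 33.3, Nob1 at 240.5, 225 and 159, Mphosph10 at 80.2, 782 and 712, Rrp12 at 0, 1.73 and 0, Tsr1 at 80.2, 135 and 24.6 and Dimt1 at 0, 257 and 229.

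Of the 17 large-subunit factors 7 rose in odd-numbered mice (5.07% of all genes) and 11 fell in even-numbered mice (4.07%). A negative difference between the sets was called for 12 (9.09% of all genes). Bop1, Pes1 and Wdr12 form a single complex, PeBoW. All 3 lay below every pH 7.4 library at pH 6.9 in even-numbered mice, where Bop1 and Wdr12 passed the test and Pes1 did not.
Bop1 had 117, 111 and 107 CPM at pH 7.4, 142 and 166 at pH 6.9, and 139.6 and 137 fresh in odd-numbered mice. Bop1 in even-numbered mice had 171, 138 and 149.7 CPM at pH 7.4, 96.9, 76.6 and 61.6 at pH 6.9, and 88.4 and 121 fresh. It changed by 0.46 ± 0.22 in odd-numbered (0.185, and -0.11 over 18 libraries) and by -0.99 ± 0.20 in even-numbered mice (0.00717, but 0.0603 without pH 6.9 replicate 6), and the difference was -1.45 ± 0.30 (0.00233).
Pes1 had 117, 131 and 80.8 CPM at pH 7.4, 64.2 and 89.7 at pH 6.9, and 117 and 119 fresh in odd-numbered mice. Pes1 in even-numbered mice had 143, 127 and 118 CPM at pH 7.4, 102, 87.7 and 64.3 at pH 6.9, and 68 and 107 fresh. Its fold changes were negative in both sets, -0.51 ± 0.27 and -0.64 ± 0.24 (0.248 and 0.124), and the difference between them was -0.13 ± 0.36 (0.85). Wdr12 changed by 0.57 ± 0.22 and -0.71 ± 0.20 (0.1 and 0.0372), and the second was lost without any one of the 6 libraries of its sets (0.0519 to 0.19).
Nip7, a small protein of pre-ribosome assembly on chromosome 8 from 107056877 to 107060931, had the smallest p of the class. It had 120.2, 113 and 126 CPM at pH 7.4, 305 and 291 at pH 6.9, and 141 and 212 fresh in odd-numbered mice. Nip7 in even-numbered mice had 185, 246 and 231 CPM at pH 7.4, 118, 97.6 and 109.7 at pH 6.9, and 285 and 303 fresh. It rose by 1.31 ± 0.20 in odd-numbered mice (0.00096) and changed by -1.04 ± 0.18 in even-numbered mice (0.00311), and the difference was -2.36 ± 0.27 (2.63e-05). Over 18 libraries it was the 1 member called in odd-numbered mice (0.0363), its difference passed (0.00948), and its change in even-numbered mice did not (0.655).
Gnl3, or nucleostemin, a nucleolar GTPase of stem and cancer cells, had 233, 204 and 276 CPM at pH 7.4, 444 and 445 at pH 6.9, and 255 and 383 fresh in odd-numbered mice. Gnl3 in even-numbered mice had 351, 335 and 386 CPM at pH 7.4, 194, 239 and 157 at pH 6.9, and 416 and 404 fresh. It rose by 0.90 ± 0.21 in odd-numbered mice (0.0119, but 0.0601 without pH 6.9 replicate 1 and 0.0568 without pH 6.9 replicate 5) and changed by -0.87 ± 0.19 in even-numbered mice (0.011, but 0.0784 without pH 7.4 replicate 6 and 0.0841 without pH 6.9 replicate 6). Between the sets the difference was -1.77 ± 0.29 (0.000371).
Rrs1, which helps load the large subunit's smallest rRNA, had 61.1, 63.3 and 38.8 CPM at pH 7.4, 30.2 and 60.6 at pH 6.9, and 51.2 and 69.3 fresh in odd-numbered mice. Rrs1 in even-numbered mice had 70.6, 42.6 and 55 CPM at pH 7.4, 44.1, 51.2 and 24.4 at pH 6.9, and 52.3 and 64.4 fresh. The sets overlapped and both fold changes were negative and uncalled (-0.23 ± 0.37 and -0.51 ± 0.33).
Mdn1, a very large ATPase that strips factors from the precursor, had 17.6, 13.6 and 35.6 CPM at pH 7.4, 24.7 and 55 at pH 6.9, and 14.2 and 21.7 fresh in odd-numbered mice. Mdn1 in even-numbered mice had 12.1, 21.3 and 27.43 CPM at pH 7.4, 19.7, 31.7 and 10.8 at pH 6.9, and 44 and 28 fresh. It passed in no comparison, with fold changes of 0.88 ± 0.51 and 0.00 ± 0.47.
The largest rises in odd-numbered mice after Nip7 were those of Ebna1bp2 (1.29 ± 0.24), Mrto4 (1.19 ± 0.26), which prepares the site of the ribosome's stalk, and Nop16 (1.15 ± 0.23), and the helicases Ddx18 and Ddx21 rose by 0.97 ± 0.20 and 0.93 ± 0.23. In even-numbered mice the same members changed by -0.86 ± 0.22, -1.09 ± 0.24, -0.98 ± 0.21, -0.76 ± 0.18 and -0.78 ± 0.21, all called. The lowest value of the class there was that of Rrp1b (-1.35 ± 0.30, 0.0123). None of these 6 calls in even-numbered mice passed without pH 7.4 replicate 6 (0.0628 to 0.132) or without pH 6.9 replicate 6 (0.0588 to 0.145). Further losses there were those of Ebna1bp2 without pH 7.4 replicate 2 (0.0583) or 4 (0.0683) or pH 6.9 replicate 4 (0.0771), of Ddx18 without pH 7.4 replicate 2 (0.085) or pH 6.9 replicate 2 (0.0602), and of Ddx21 without pH 7.4 replicate 2 (0.122) or pH 6.9 replicate 4 (0.1265). The rise of Ddx21 was lost without pH 6.9 replicate 5 (0.138). In fresh replicate 1, fresh replicate 4 and pH 6.9 replicate 3, Bop1 was at 0, 0.575 and 0 CPM, Pes1 at 160.3, 19 and 10.5, Nip7 at 160.3, 589 and 522, Gnl3 at 321, 269.8 and 304, Rrs1 at 0, 77.1 and 50 and Mdn1 at 80.2, 20.1 and 4.39.

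The remaining 4 members, Npm1, Ncl, Nme1 and Pa2g4, all rose in odd-numbered mice (5.07% of all genes) and all fell in even-numbered mice (4.07%). Npm1 (nucleophosmin) is a nucleolar chaperone on chromosome 11 from 33152287 to 33163206, and Ncl (nucleolin) is a binder of precursor rRNA on chromosome 1 from 86344719 to 86359400. Nme1 is a nucleoside diphosphate kinase, and Pa2g4 is a growth-linked protein found on ribosome precursors.
Npm1 had 669, 919.6 and 710.38 CPM at pH 7.4, 1935 and 2118 at pH 6.9, and 1089 and 1952 fresh in odd-numbered mice. Npm1 in even-numbered mice had 1740.5, 1671 and 1919 CPM at pH 7.4, 816, 759 and 529 at pH 6.9, and 2089 and 2016 fresh. It rose by 1.40 ± 0.22 in odd-numbered mice (0.0012) and changed by -1.36 ± 0.21 in even-numbered mice (0.00137), and the difference was -2.75 ± 0.31 (2.03e-05, and 0.0119 over 18 libraries). Over 18 libraries its changes in the single sets did not pass (0.0547 and 0.634). The low sets lay between 529 and 920 CPM and the high sets between 1671 and 2118 CPM.
Ncl had 904, 971 and 774 CPM at pH 7.4, 1616 and 2074 at pH 6.9, and 1242 and 1599.8 fresh in odd-numbered mice. Ncl in even-numbered mice had 1536, 1369.7 and 1509 CPM at pH 7.4, 782, 719 and 676 at pH 6.9, and 1613 and 2184 fresh. It rose by 1.06 ± 0.18 (0.00208) and changed by -1.03 ± 0.17 (0.00208) in the respective sets, with a difference of -2.09 ± 0.25 (3.17e-05, and 0.0339 over 18 libraries, where the changes in the single sets had 0.0953 and 0.863).
Nme1 had 418, 482 and 558 CPM at pH 7.4, 1249 and 1009 at pH 6.9, and 578 and 846 fresh in odd-numbered mice. Nme1 in even-numbered mice had 691, 766 and 801 CPM at pH 7.4, 414, 386 and 319.6 at pH 6.9, and 1036 and 838 fresh. It rose by 1.21 ± 0.20 (0.00146) and changed by -1.03 ± 0.18 (0.00311), with a difference of -2.24 ± 0.27 (3.24e-05). None of the 3 passed over 18 libraries (0.13, 0.927 and 0.0586). Pa2g4 had the largest rise of all 50 in odd-numbered mice (1.66 ± 0.33, 0.00524) and changed by -1.15 ± 0.30 in even-numbered mice (0.0286). Its rise was lost without pH 6.9 replicate 5 (0.0711), and its fall without pH 7.4 replicate 6 (0.211) or pH 6.9 replicate 2 (0.104), 4 (0.0868) or 6 (0.0553).
Npm1 has processed pseudogenes and Nme1 a close paralog, Nme2. An exon of Nme1 also overlaps Gm20390 on the same strand by 130 bases. The submitters name kallisto without settings, and how reads were divided among such copies was not checked, so both levels are uncertain. In fresh replicate 1, fresh replicate 4 and pH 6.9 replicate 3, Npm1 was at 721, 4749.5 and 4846 CPM, Ncl at 882, 5014 and 4448 and Nme1 at 80.2, 2502 and 2074.

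**Figure D4:**
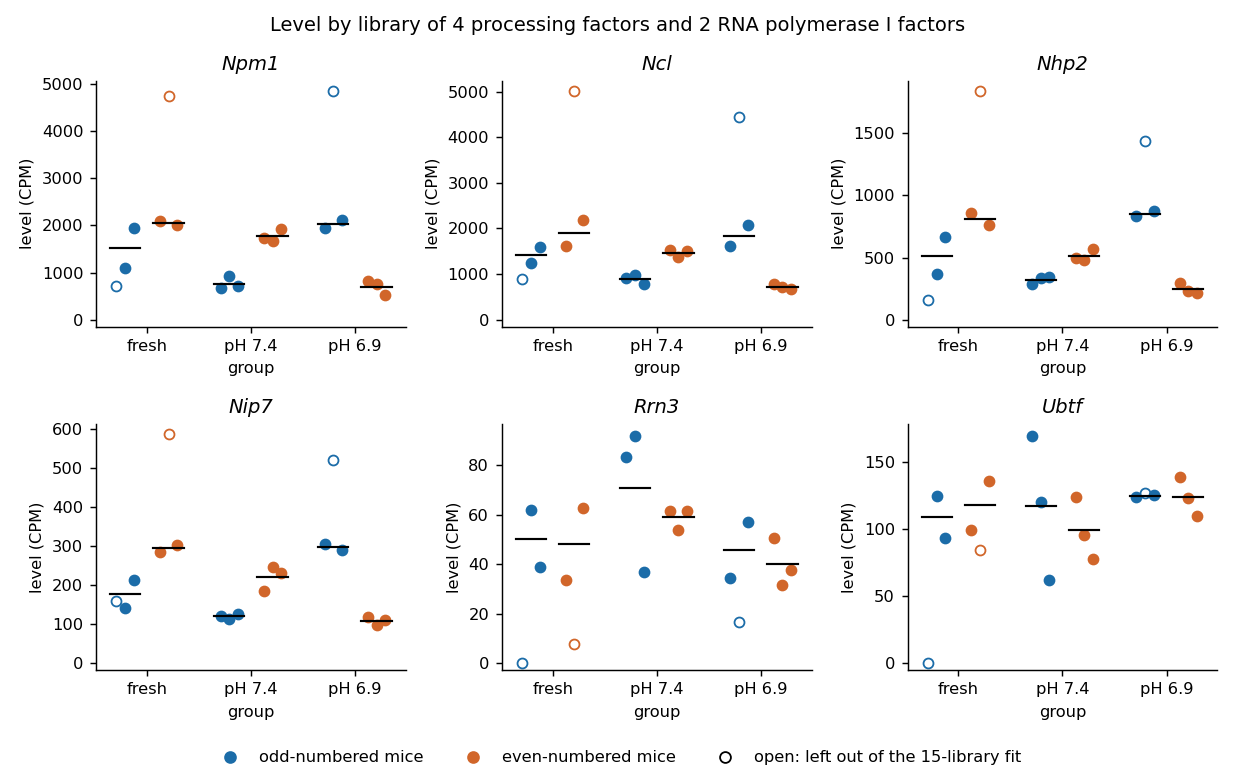
Level in CPM (vertical axis) of Npm1, Ncl, Nhp2, Nip7, Rrn3 and Ubtf in each library by group, for odd-numbered (blue) and even-numbered mice (orange); black lines are the means of the filled points, and open points are the 3 libraries left out of the 15-library fit. The first 4 genes swap their order between pH 7.4 and pH 6.9 (Npm1 from 669 to 920 against 1671 to 1919 CPM at pH 7.4 and from 1935 to 2118 against 529 to 816 at pH 6.9), while Rrn3 and Ubtf show no such swap: Ubtf overlaps in both sets of mice, and Rrn3 overlaps in odd-numbered mice and is lower at pH 6.9 in even-numbered mice without passing the test.

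Against fresh cells, the members were lower at pH 6.9 in even-numbered mice, where 35 of 50 fell and 0 rose (6.15% of all genes fell and 4.77% rose). The median was -0.97 against 0.06 over all genes, and 42 members lay below both fresh libraries in every pH 6.9 library (20.5% of all genes). The largest changes were those of Utp20 (-1.72 ± 0.39, adjusted p = 0.00925), Nhp2 (-1.71 ± 0.22, 0.000225), Pa2g4 (-1.63 ± 0.32) and Npm1 (-1.56 ± 0.23). By role, 1 of 4 RNA polymerase I genes (Polr1b, -1.22 ± 0.39), 7 of 8 snoRNP proteins, 11 of 17 small-subunit factors, 12 of 17 large-subunit factors and 4 of 4 of the rest fell. Fbl, which did not pass for pH, was among them (-1.43 ± 0.32, 0.00848). Without fresh replicate 6, Utp20 (0.0619), Pa2g4 (0.078) and Fbl (0.0532) did not pass. Polr1b was lost with mouse number as a term (0.0726) and without any one of 10 libraries, at 0.0521 to 0.397. Those libraries were all 4 fresh ones, pH 7.4 replicates 1, 2 and 6, and pH 6.9 replicates 2, 4 and 6. Over 18 libraries Nhp2 (0.0248), Pa2g4 (0.04355) and Npm1 (0.0416) passed. The count was 23 without fresh replicate 2, 13 without fresh replicate 6 and 18 without pH 6.9 replicate 6, and 5 over 18 libraries.
In odd-numbered mice, 0 of 50 members passed at pH 6.9 against fresh cells by edgeR (0.0657% of all genes rose and 0.535% fell), with 9 at an unadjusted p under 0.05 and 3 by DESeq2. The median was 0.28, and 38 were positive. The edgeR count was 2 without fresh replicate 5. Mdn1 had the highest value (1.17 ± 0.57) and Pes1 the lowest (-0.61 ± 0.30).
Culture at pH 7.4 against fresh cells gave 0 of 50 by edgeR in odd-numbered mice (0.103% of all genes rose and 0.00938% fell), with 13 at an unadjusted p under 0.05 and 2 by DESeq2, a median of -0.32 and 47 of 50 negative. The count was 2 without fresh replicate 3. In even-numbered mice it gave 0 of 50 (0.0563% of all genes rose and 0.0469% fell), with 8 at an unadjusted p under 0.05 and 0 by DESeq2, and a median of -0.23. These comparisons share the fresh libraries of each set, and each fresh set holds 2 libraries. For pH 7.4 against fresh cells, and for pH 6.9 against fresh cells in odd-numbered mice, medians over all genes are not given. Nor is the share of all genes at an unadjusted p under 0.05.

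Between even- and odd-numbered mice of one group, members differed in opposite directions at the 2 pH values. At pH 7.4, 8 of 50 were higher in even-numbered mice and 0 lower (1.66% of all genes were higher and 1.67% lower), with a median of 0.55. The smallest p were those of Npm1 (1.22 ± 0.21, adjusted p = 0.00364), Nip7 (0.90 ± 0.18, 0.0118) and Ddx18 (0.89 ± 0.18, 0.0123). Nip7 did not pass without replicate 4 (0.0538) or 6 (0.0818), nor Ddx18 without replicate 2 (0.063) or 6 (0.0818). This count was 4 without pH 7.4 replicate 1, 3 or 4, 2 without replicate 2, 1 without replicate 6 and 0 over 18 libraries.
At pH 6.9, 27 of 50 were lower in even-numbered mice and 0 higher (7.36% of all genes were lower and 7.02% higher), with a median of -0.92. Nhp2 (-1.78 ± 0.22, 0.00013), Pa2g4 (-1.62 ± 0.32) and Nme1 (-1.60 ± 0.20) had the largest differences. Pa2g4 did not pass without pH 6.9 replicate 5 (0.07), and over 18 libraries Nhp2 (0.0255) and Pa2g4 (0.0413) passed while Nme1 did not (0.0537). The count was 12 without pH 6.9 replicate 5 and 7 over 18 libraries.
In fresh cells 0 of 50 passed by edgeR (0.0188% of all genes were higher in even-numbered mice and 0.0375% lower), with 9 at an unadjusted p under 0.05 and 1 by DESeq2. The median was 0.34 towards even-numbered mice, and 44 were positive. The share of all genes at that unadjusted p is not given, nor are medians over all genes between mice of one group.

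Over the 15 libraries the correlation of a member's log2(CPM + 1) with the mean of the other 49 had a median of 0.83, and it was above 0.8 for 31 members, as a description. The same values over all genes are not given, so that this correlation is not shown to be particular to the members. Ncl followed the others most closely (0.986). The 4 under 0.5 were Ubtf (-0.02), Rrn3 (0.13), Pes1 (0.21) and Mdn1 (0.40).
Outside the lists, the 5 genes whose profile was most like the members' mean over the 15 libraries were Ccdc58 (r = 0.973), Srm (0.968), Timm8a1 (0.964), Psmg3 (0.963) and Atp5g3 (0.963). Srm encodes spermidine synthase, Timm8a1 and Ccdc58 mitochondrial proteins, Psmg3 a proteasome assembly chaperone and Atp5g3 a subunit of the ATP synthase. In odd-numbered mice Srm averaged 280 CPM at pH 7.4, 746 at pH 6.9 and 557 fresh. Its means for even mouse numbers were 714, 222 and 804 CPM.
Myc itself was not called. It averaged 374 ± 54.8 CPM (SD, n = 3) in odd-numbered and 592 ± 116 (n = 3) in even-numbered mice at pH 7.4, 431 ± 203 (n = 2) and 458 ± 119 (n = 3) at pH 6.9, and 441 ± 71.6 and 544 ± 229 in fresh cells (n = 2 each). Its pH fold changes were 0.21 ± 0.30 in odd-numbered mice (adjusted p = 0.71) and -0.39 ± 0.27 in even-numbered mice (0.455), and the sets overlapped.

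A wider list of 137 other biogenesis factors, written from general knowledge, was counted beside the members. In odd-numbered mice 30 rose and 1 fell at pH 6.9, where 5.07% of all genes tested rose and 6.01% fell. In even-numbered mice 0 rose and 34 fell, where 2.67% of all genes rose and 4.07% fell. A difference between the sets was called for 57, all negative, as for 9.09% of all genes. The same shares stand beside the counts by list below. The median fold changes were 0.45 and -0.54, against 0.69 and -0.81 in the 50 members.
Ruvbl2, an ATPase of snoRNP assembly, went from 254, 227 and 195 CPM at pH 7.4 to 558 and 626 CPM at pH 6.9 in odd-numbered mice. Ruvbl2 in even-numbered mice went from 407, 446 and 498 to 183, 219.7 and 159 CPM. It changed by 1.39 ± 0.22 and -1.28 ± 0.20, with a difference of -2.67 ± 0.30 (adjusted p = 2.19e-05). Of 10 other snoRNP factors 4 rose in odd-numbered mice, among them Tcof1 (1.77 ± 0.36), and 3 fell in even-numbered mice, among them Snu13 (-0.96 ± 0.18).
Of 11 other RNA polymerase I factors 3 rose in odd-numbered mice and 3 fell in even-numbered mice. Taf1d, part of the promoter selectivity factor, did both (1.01 ± 0.23 and -0.87 ± 0.21), Polr1d rose (0.83 ± 0.21) and Polr1e fell (-0.90 ± 0.23).
Of 48 other small-subunit factors 10 rose and 1 fell in odd-numbered mice and 11 fell in even-numbered mice. Aatf changed in both (1.04 ± 0.20 and -0.85 ± 0.18), Emg1 rose in odd-numbered mice (0.99 ± 0.22) and Noc4l fell in even-numbered mice (-0.94 ± 0.17).
The gene that fell in odd-numbered mice was Wdr3 of the processome (-1.01 ± 0.27, 0.0231), which went from 79.7, 85.8 and 71.3 CPM at pH 7.4 to 35.2 and 42.6 CPM at pH 6.9.
Of 54 other large-subunit factors 10 rose in odd-numbered and 14 fell in even-numbered mice, with the smallest p for Rrp15 (1.51 ± 0.24) and Nifk (0.81 ± 0.18) in the first and Wdr18 (-1.27 ± 0.19) and Ddx56 (-1.12 ± 0.19) in the second. Of 14 exosome subunits, which trim and degrade the RNA, 3 rose and 3 fell, Exosc6 (1.39 ± 0.27) and Exosc1 (1.15 ± 0.23) in odd-numbered and Exosc1 (-0.82 ± 0.21) and Exosc8 (-0.75 ± 0.21) in even-numbered mice having the smallest p.
Of 79 cytosolic ribosomal protein genes, the products that the members assemble, 33 rose in odd-numbered mice, where 5.07% of all genes tested did. In even-numbered mice 7 fell, where 4.07% of all genes did, so that this count was nearer to the share over all genes.

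Markers of other cell types and of division moved with the same sets, and their part in the results was not tested. Of all genes tested, 5.07% rose and 6.01% fell at pH 6.9 in odd-numbered mice. In even-numbered mice 2.67% rose and 4.07% fell. Of 15 LT-HSC markers 13 were above 1 CPM in all 15 libraries, Kit at 69.6 to 207 CPM and Procr at 4.76 to 51.2 CPM, while Fgd5 was at 0 in pH 6.9 replicate 4. Their sum was 1361 to 1814 CPM at pH 7.4 and 1266 to 1668 at pH 6.9 in odd-numbered mice, against 568.06 to 834 and 1530.4 to 1979.5 in even-numbered mice, and 756 to 1216 and 925 to 987 in fresh cells. In even-numbered mice this sum and that of the members thus did not overlap between the pH values and moved in opposite directions. Of 14 tested markers Ly6a, which encodes the stem cell antigen Sca-1, rose there (2.16, adjusted p = 0.00539), and Gata2, a transcription factor of stem cells, fell in odd-numbered mice (-1.64, 0.0218). The difference between the sets passed for both, at 2.19 for Ly6a (0.0154) and 2.70 for Gata2 (0.003).
Stroma and endothelium markers, 8 in all, summed to 224 to 329 CPM at pH 7.4 and 79.4 to 105 at pH 6.9 in odd-numbered mice, and to 107 to 148 and 281 to 371 in even-numbered mice. The direction was opposite to the members' in both sets, and the sums in fresh cells were 99.5 to 192 and 65.7 to 73.5. Of the 3 tested, Pecam1, an adhesion molecule of endothelium that blood stem cells also carry, fell in odd-numbered (-1.95, 0.000625) and rose in even-numbered mice (1.40, 0.00208).
A list of 11 granulocyte and monocyte progenitor genes summed to 407 to 569 CPM at pH 7.4 in odd-numbered mice, 2340 to 5759 in even-numbered mice, 669 to 783 and 456 to 505 at pH 6.9, and 748 to 6237 and 589 to 928 in fresh cells. Calr alone held 353 to 524 CPM of the sums at pH 7.4 in odd-numbered mice. It held 422 to 458 CPM of those at pH 6.9 in even-numbered mice, so that these low sums were mostly Calr. Of the list's 6 tested genes 5 fell at pH 6.9 in even-numbered mice, Calr among them (-0.70, adjusted p = 0.0342). In odd-numbered mice 0 changed. Mpo, the granule enzyme myeloperoxidase, was at 1079.9, 1019 and 3130.4 CPM in even-numbered mice at pH 7.4 and at 1.16, 9.88 and 6.54 at pH 6.9, and Fcnb was at 0 in all 15.
The 20 mitosis genes had 0 calls up and 7 down at pH 6.9 in odd-numbered mice, while 17 members rose. The mitosis sums overlapped there, with 886 to 2023 CPM against 1936 to 4349 CPM in the pH 7.4 libraries. In even-numbered mice 16 of the 20 mitosis genes had the members' direction, with negative values, and the median was -0.51. With edgeR 0 of the 20 were called (3 at an unadjusted p under 0.05). Their sums did not overlap, 4694 to 5891 CPM (pH 7.4) against 3641 to 3884 CPM (pH 6.9). Mki67 went the other way: its lowest pH 6.9 library (212 CPM) lay above its highest pH 7.4 library (205 CPM). Top2a overlapped, its range being 299 to 366 CPM (pH 6.9) against 268 to 305 CPM (pH 7.4). Of 5 tested genes of MHC class II and dendritic cells 4 rose in odd-numbered mice, with sums of 44.3 to 64.4 CPM at pH 7.4 and 126 to 307 at pH 6.9, and Siglech was at 0 in all 15.
T and NK cell markers summed to 26.1 to 45.2 CPM at pH 7.4 and 45.7 to 96.5 at pH 6.9 in odd-numbered mice, and to 84.0 to 122 and 18.9 to 44.7 in even-numbered mice, with Cd3g at 0 in all 15. Nkg7, a granule protein of cytotoxic cells, fell in even-numbered mice (-3.22, 0.00795). Of the tested monocyte and macrophage markers 1 of 4 rose in each set, 1 of 7 megakaryocyte markers fell and 1 of 3 mast cell and basophil markers rose in odd-numbered mice, and 0 of 4 erythroid and 0 of 2 B cell markers were called by edgeR in either set. C1qb of macrophages and Prss34 of basophils were at 0 in all 15.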

How the data were processed

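Paired-end reads of 75 bp from SMART-Seq v4 and Nextera XT libraries were not strand-specific. The values, one per gene symbol and library, are estimated counts that the authors deposited as whole numbers, and kallisto and the build mm10 are named, with no version, per the submitters' processing notes. Groups came from the sample titles, and 0 columns were left unmapped. The members, the gene lists and the split by mouse parity were chosen with earlier results of these data known. Tests were edgeR 4.0.16 robust quasi-likelihood fits (R 4.3.3, limma 3.58.1) with filterByExpr, TMM and Benjamini-Hochberg adjustment over all genes tested at 0.05. One fit held all 18 libraries and 3 group terms. The other held 15 libraries and 6 sets of group and mouse parity, and left out libraries with under 1e+05 counts or fewer than 10000 genes detected. The alternatives were DESeq2 1.42.0, its size factors, no filter on low counts, mouse number as a term, the other set of libraries, and each library left out in turn. Scripts were tested on simulated data. CPM were computed on the TMM scale of 18 libraries, and log2 values used a pseudocount of 1.
Every group has the same mouse numbers in its titles, and since the series' design speaks of 6 individual mice these were taken to pair samples. Over 12 same-numbered pairs the correlation of deviations from the set means ran from -0.0998 to 0.165, with a median of 0.0349 and 4 over 0.1. With no label on separate cultures, p-values measure the spread between these libraries. A count of 0 allows up to 3 counts, and floors cover counting error only.
Named beside the members by library were 22 genes fixed by role, and members that passed in no comparison. For each list of other factors the 2 genes of smallest p in each direction were named. Gene coordinates are from GENCODE M21 on mm10, and promoters from RefSeq on GRCm38.p6.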

Additional observations from a re-analysis of the deposited data

Results flagged for a closer look

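Of 84 groups of 6 libraries tested for a library far from the rest, 16 held one. Chance gives about 1 in 20 for independent groups. These groups are correlated genes in the same libraries, so that rate does not apply to them. The value is the gap to the nearest library divided by the group's range. Fresh replicate 4 was high for Fbl (0.651), Wdr43 (0.634), Nip7 (0.638), Npm1 (0.660), Ncl (0.685), Gar1 (0.835), Mphosph10 (0.864) and Dimt1 (0.665). The library pH 6.9 replicate 3 was high for Fbl (0.733), Wdr43 (0.678), Npm1 (0.632), Ncl (0.629), Gar1 (0.936), Mphosph10 (0.866) and Dimt1 (0.858). Fresh replicate 1 was low for Rrs1 (0.664). The cause was not tested.

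The pH effect differed between even- and odd-numbered mice for 33 of the 50 members by the interaction in edgeR's fit. On the log2 scale, even minus odd, the differences of the members given by library were -1.52 for Polr1b, -1.37 for Nop56, -1.18 for Dkc1, -2.47 for Nhp2, -1.68 for Utp4, -1.51 for Imp4, -1.15 for Wdr43, -1.67 for Bysl and -1.17 for Nob1. They were -1.45 for Bop1, -1.77 for Gnl3, -2.36 for Nip7, -2.75 for Npm1, -2.09 for Ncl and -2.24 for Nme1. Mouse parity and the sequencing index in the titles cannot be told apart.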

How the results depend on the processing

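Counts of members called over 18 libraries in the set comparisons were 1 for pH in odd-numbered mice, 0 in even-numbered mice, 6 for their difference, 5 for pH 6.9 against fresh in even-numbered mice, and 0 and 7 for even against odd at pH 7.4 and pH 6.9. Without a filter, pH 7.4 against fresh gave 2 in odd- and 1 in even-numbered mice, and pH 6.9 against fresh gave 1 in odd-numbered mice. DESeq2 gave 2 and 3 in odd-numbered mice for these comparisons with fresh cells, and 1 and 14 for even against odd in fresh cells and at pH 7.4. Leaving out 1 library in turn gave 9 to 18 for pH in odd-numbered mice, 7 to 27 in even-numbered mice, 25 to 34 for the difference, 0 to 2 for pH 7.4 and for pH 6.9 against fresh in odd-numbered mice, 13 to 36 for pH 6.9 against fresh in even-numbered mice, 1 to 11 and 12 to 28 for even against odd at pH 7.4 and pH 6.9, and 0 otherwise.
With mouse number as a replicate block the counts were 14 and 26 for pH in odd- and even-numbered mice and 31 for the difference, 27 for pH 6.9 against fresh in even-numbered mice, and 8 and 26 for even against odd at pH 7.4 and pH 6.9. Of 67 calls of single members described, the block kept 62, lost 5 and added 2, each given beside its gene. It turned Mdn1 in even-numbered mice to -0.10 and the difference of Rrn3 to -0.28. Over 18 libraries Bop1 in odd-numbered mice turned to -0.11 and the difference of Pes1 to 0.37, and Utp15 in odd-numbered mice to -0.12. Over 15 libraries Gar1 in the 18-library pH comparison turned to -0.0899, and without a filter Mdn1 turned to -0.0026. Leaving out 1 library reversed uncalled values of single members, whose ranges were, in odd-numbered mice, -0.11 to 0.66 for Polr1b, -0.21 to 0.44 for Ubtf, -0.17 to 0.86 for Nob1, -0.86 to 0.15 for Rrs1, -0.058 to 0.18 for Utp15, -0.071 to 0.45 for Gar1 and -0.52 to 0.0094 for Tsr1. In even-numbered mice Mdn1 ran from -0.47 to 0.34, and Gar1 in the 18-library comparison from -0.072 to 1.33. Ranges of the difference were -0.27 to 0.47 for Rrn3, -0.12 to 0.53 for Ubtf, -0.34 to 0.15 for Pes1 and -0.67 to 0.35 for Rrs1. Of the same 67 calls, 57 were lost over 18 libraries and 10 kept. The cause was not tested. Fresh sets and odd-numbered mice at pH 6.9 hold 2 libraries each, which limits what they can show. The share of all genes called under these alternative settings is not given.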
